A study of Mus musculus with 12 samples.

Results

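The interferon-gamma gene (Ifng) and the genes of both chains of its receptor (Ifngr1 and Ifngr2) were followed in mouse CD4+ T cells treated with IL-12. The 3 genes are the probe sets of the array whose platform gene symbol is one of these names, 1 probe set each, among 19752 genes with a value. Expression was measured on 12 whole-transcript arrays, 1 per sample. All cells were splenic CD4+ T cells of male C57BL/6 mice aged 6 weeks, enriched by negative selection and activated for 48 h with beads against CD3 and CD28. IL-12 at 100 U/ml was then present for 8 h in 4 samples and for 2 h in 5 samples, 2 samples were cultured for 2 h without it, and 1 sample was labelled baseline with no culture time. No labelled group was untreated for 8 h, so time in culture and time with IL-12 cannot be told apart in any comparison with the 8 h samples. The labels do not say whether samples came from separate animals, pools or cultures, so the p-values here reflect the spread among these samples alone, and that spread may be technical.

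Interferon-gamma is the signature cytokine of T helper 1 cells. IL-12 from antigen-presenting cells acts through the kinases JAK2 and TYK2 and the transcription factor STAT4 to raise Ifng transcription in activated T cells. The secreted cytokine binds IFNGR1, the ligand-binding chain that carries JAK1, and IFNGR2 is the signalling chain that carries JAK2. In mouse T helper 1 cells the IFNGR2 chain is known as the limiting one.

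The sample titles carry numbers, and no label says what they mean. IL-12 samples carry 2 to 4 (5 arrays) and 5 and 6 (4 arrays), the untreated samples carry 7 and 8, and the baseline sample carries 5. The runs 2 to 4 and 5 to 8 differed at 24.3% of genes in a limma fit, more than any comparison of conditions did, and the fit used throughout therefore holds 4 group means and a term for the run. Within a run the untreated samples can be set only against the IL-12 arrays numbered 5 and 6. For gene lists, medians within a run are given beside the pooled ones, and over all genes the medians within a run lay between -0.015 and -0.00060 on the log2 scale. Across genes, pairs of arrays from 1 group and run had a median correlation of 0.998. For CD4 T cells 10 of 11 listed markers were measured, which besides Cd4 are genes of T cells in general. The mean log2 intensity of the 10 lay between 11.66 and 11.84 on all arrays. Cd4 intensity lay between 2915 and 4297. NK cells, another source of interferon-gamma, were covered by 9 measured markers of 12, whose mean log2 intensity lay between 5.91 and 6.38, and Ncr1, which marks them, lay between 46.1 and 90.4. Eomes, which NK cells and some T cells express, lay between 165.5 and 478.3. Of the markers of CD8 T cells, Cd8a had an intensity of 128 to 163 and Cd8b1 of 369 to 686. In bulk samples, fewer cells that express a gene and less RNA per cell cannot be told apart.

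The 250 bases before the annotated start of each gene are shown because the members differed in their response to IL-12. They are from RefSeq (mouse build GRCm38.p6), read 5′ to 3′ on the gene's strand, and all 3 genes matched an entry. Capitals mark TATAAA in Ifng and GGGCGG or its reverse complement in the receptor genes.
Ifng, chr10:118440796-118441045, plus strand: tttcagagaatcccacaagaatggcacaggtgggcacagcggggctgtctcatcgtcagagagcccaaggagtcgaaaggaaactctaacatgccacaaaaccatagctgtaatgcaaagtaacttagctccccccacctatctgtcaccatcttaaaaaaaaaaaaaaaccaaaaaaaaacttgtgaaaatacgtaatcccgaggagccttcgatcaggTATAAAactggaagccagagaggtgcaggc
Ifngr1, chr10:19591699-19591948, plus strand: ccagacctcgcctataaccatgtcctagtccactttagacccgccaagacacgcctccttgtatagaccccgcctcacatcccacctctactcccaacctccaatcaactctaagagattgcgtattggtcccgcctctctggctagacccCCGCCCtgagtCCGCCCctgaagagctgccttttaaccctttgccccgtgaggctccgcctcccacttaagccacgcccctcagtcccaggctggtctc
Ifngr2, chr16:91546809-91547058, plus strand: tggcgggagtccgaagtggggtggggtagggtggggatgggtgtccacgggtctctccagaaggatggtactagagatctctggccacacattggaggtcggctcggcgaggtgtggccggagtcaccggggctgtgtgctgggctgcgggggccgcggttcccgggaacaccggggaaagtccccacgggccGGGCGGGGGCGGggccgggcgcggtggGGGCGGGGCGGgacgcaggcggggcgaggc
The Ifng window has a GC content of 45.2% and 6 CpG dinucleotides, and TATAAA begins 30 bases before its start. The Ifngr1 window has 59.2% GC, 11 CpG and no TATAAA, with 2 matches to GGGCGG on the other strand. The Ifngr2 window has 74% GC, 25 CpG and no TATAAA, with 4 matches to GGGCGG on its own strand. Over all 32851 windows of this length the median was 52.4% GC and 6 CpG, and on either strand 12.4% held TATAAA and 32.7% held GGGCGG. The STAT-type letters TTCNNNGAA occur once in the Ifng window, 249 bases before its start, and in 7.02% of all windows. The same motif with a wider gap occurs once in the Ifngr2 window, 91 bases before its start, and in 5.85% of all windows. These matches describe the letters only.

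Ifng, which encodes the cytokine, was higher on every IL-12 array than on any array without IL-12. With IL-12 for 2 h its intensity was 3824, 4211 and 4090 on arrays 2, 3 and 4 and 2435 and 2355 on arrays 5 and 6, against 826.1 and 676.8 on the untreated arrays 7 and 8. The lowest treated array was above the highest untreated one in this comparison, and the arrays numbered 2 to 4 were the highest of the 12. In the fit Ifng rose 3.83-fold at 2 h over untreated cells, a log2 change of 1.94 ± 0.20 (SE; limma, adjusted p = 0.0025), and it had the smallest p of all genes. It was 1 of 14 genes called at an adjusted p under 0.05, which is 0.0709% of those tested, all of them higher in IL-12. At an unadjusted p under 0.05 there were 971 genes (4.92%). Among arrays numbered 5 to 8 alone, Ifng was 3.20-fold higher at 2 h (log2 1.68, n = 2 and 2; limma, adjusted p = 0.00174) and was the only gene called. Left out 1 array at a time, the change lay between 1.79 and 2.10 and was called every time, while the count of called genes fell to 2 without untreated array 7, 5 without untreated array 8 and 9 without the IL-12 2 h array 3.

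With IL-12 for 8 h, Ifng intensity was 1962 and 2145 on arrays 2 and 3 and 2479 and 2219 on arrays 5 and 6, against the same untreated arrays. The groups again did not overlap. The rise was 2.62-fold (log2 1.39 ± 0.20, SE; limma, adjusted p = 0.00125). Called genes were 3.16% of all genes here, 1.04% higher and 2.13% lower, and their number of 625 fell to 300 without untreated array 7 and 267 without untreated array 8. Among arrays 5 to 8 the rise was 3.14-fold (log2 1.65; limma, adjusted p = 0.000186). Both contrasts with IL-12 share the untreated arrays, so they are not independent of each other. The baseline array had an Ifng intensity of 653.6, and untreated cells differed from it by a log2 of 0.19 ± 0.26 (95% interval -0.37 to 0.76; limma, adjusted p = 0.728).

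**Figure D1:**
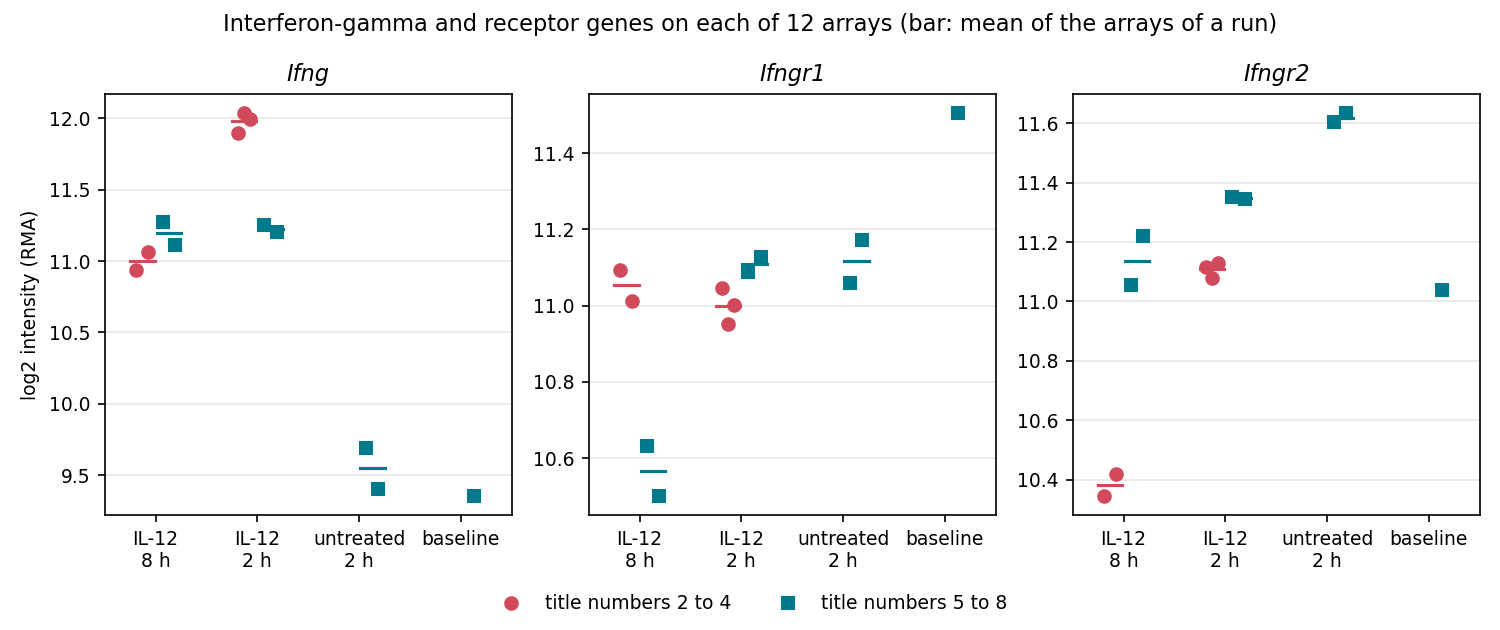
Log2 intensity of Ifng, Ifngr1 and Ifngr2 on each of the 12 arrays by group, with circles for title numbers 2 to 4, squares for 5 to 8 and bars for the mean of the arrays of 1 run. All IL-12 arrays lie above all others for Ifng, the 2 untreated arrays lie highest for Ifngr2, and the runs separate within the IL-12 groups. The vertical axes differ between panels and do not start at 0.

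Ifngr1, which encodes the ligand-binding chain, did not pass the test at 2 h. Its intensity with IL-12 for 2 h was 2114, 1979, 2050, 2176 and 2239 on arrays 2 to 6, against 2136 and 2306 on the untreated arrays. The groups overlapped, and the log2 difference was -0.17 ± 0.13 with a 95% interval of -0.46 to 0.12 (SE; limma, adjusted p = 0.999). At 8 h the intensity was 2184 and 2066 on arrays 2 and 3 and 1588 and 1448 on arrays 5 and 6. Only arrays 5 and 6 were below the other arrays. Over all arrays the difference from untreated cells was -0.39 ± 0.13 (95% interval -0.67 to -0.10; limma, adjusted p = 0.162), which missed the threshold. Within arrays 5 to 8 it was -0.55, or 1.46-fold lower (limma, adjusted p = 0.0247), and there it passed. The baseline array had the highest intensity of the 12, at 2909, and untreated cells differed from it by a log2 of -0.39 ± 0.18 (limma, adjusted p = 0.204).

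Ifngr2, which encodes the signalling chain, was highest on both untreated arrays and lowest on the 8 h arrays 2 and 3. At 2 h its intensity was 2220, 2163 and 2241 on arrays 2 to 4 and 2615 and 2604 on arrays 5 and 6, against 3110 and 3182 on the untreated arrays. Although the groups did not overlap, the log2 difference adjusted for the run was -0.13 ± 0.12 (95% interval -0.39 to 0.13; limma, adjusted p = 0.999) and did not pass, and among arrays 5 to 8 it was -0.27. At 8 h the intensity was 1300 and 1369 on arrays 2 and 3 and 2129 and 2385 on arrays 5 and 6, all below the untreated arrays. Ifngr2 fell 1.54-fold at 8 h against untreated cells (log2 -0.62 ± 0.12, SE; limma, adjusted p = 0.0113), and 1.40-fold among arrays 5 to 8 (log2 -0.48; limma, adjusted p = 0.044). Without the run term it had -0.86 and did not pass (limma, adjusted p = 0.069). Its call over all arrays was lost without untreated array 7 (-0.64, adjusted p = 0.0706 in limma) and without untreated array 8 (-0.61, adjusted p = 0.0879 in limma). The mean log2 intensity of 18 measured macrophage and monocyte markers of 20 listed was 6.22 to 6.66 on the 8 h arrays and 6.70 to 6.84 on the untreated ones. With it as a covariate the Ifngr2 difference was -0.57 and no longer passed. Untreated cells were above the baseline array, whose intensity was 2102 (log2 0.58 ± 0.16; limma, adjusted p = 0.032), among 10.2% of genes called. That call was lost without untreated array 7 (0.60) and without array 8 (0.57), and with the baseline array placed in the other run the difference was 0.11 (limma, adjusted p = 0.935). Macrophage markers averaged 6.48 on the baseline array, and their part in these differences was not tested beyond the covariate. Of these 18 markers 14 were above 0 in untreated cells against baseline, with Lyz2, Cd68 and Cybb called higher. The 7 measured B cell markers of 8 listed averaged a log2 intensity of 7.03, against 7.45, with Ms4a1 and Pax5 called lower. Of 9 NK cell markers 7 were above 0, with Ncr1 and Klrb1c called higher. Cd8b1 was called higher too, but Cd8a had -0.09. Of 8 dendritic cell markers 4 were above 0, with Itgax called higher. The part of the B, NK, CD8 and dendritic cell markers in the Ifngr2 difference was not tested.

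Of the 3 members, only Ifng was thus called at 2 h, where 0.0709% of all genes were called. At 8 h against untreated cells Ifng was called higher and Ifngr2 lower, against 1.04% higher and 2.13% lower over all genes. The Ifngr2 call did not hold without either untreated array, without the run term or with the macrophage marker covariate. The run term passed for Ifngr2, at a log2 of -0.48 ± 0.09 for numbers 2 to 4 minus 5 to 8 (limma, adjusted p = 0.00142). For Ifng the term was 0.32 ± 0.14 (limma, adjusted p = 0.118) and for Ifngr1 0.16 ± 0.10 (limma, adjusted p = 0.24). The term takes the same offset at both times, but the offset differed between 2 h and 8 h. It was 0.75 and -0.19 for Ifng, -0.11 and 0.49 for Ifngr1, and -0.24 and -0.76 for Ifngr2. Comparisons with untreated cells over all arrays rest on this shared offset, and those among arrays 5 to 8 do not.

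**Figure D2:**
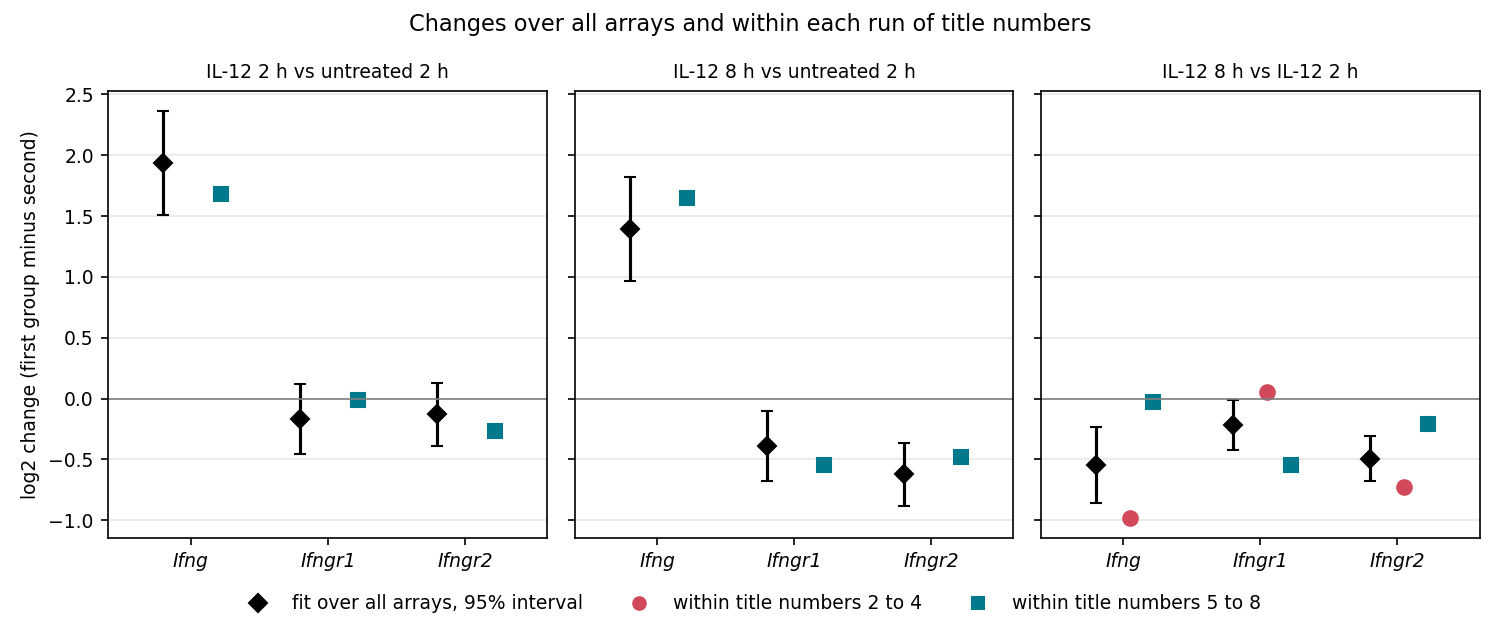
Log2 change of each gene in 3 comparisons, with diamonds for the fit over all arrays and its 95% interval, and circles and squares for differences of means within title numbers 2 to 4 and 5 to 8. Ifng lies well above 0 in both comparisons with untreated cells, and between 8 h and 2 h both runs lie apart for each gene.

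Between 8 h and 2 h of IL-12, Ifng and Ifngr2 were lower at 8 h over all arrays. Ifng fell 1.46-fold (log2 -0.55 ± 0.14, SE; limma, adjusted p = 0.0227) and Ifngr2 fell 1.41-fold (-0.49 ± 0.09; limma, adjusted p = 0.00203), while Ifngr1 had -0.22 ± 0.10 (limma, adjusted p = 0.188). Called genes were 12.6% of all genes, 6.27% higher and 6.36% lower. The Ifng call was lost without any one of the IL-12 2 h arrays 2, 3 and 4 (-0.52, -0.49 and -0.50) or the 8 h arrays 2 and 3 (-0.41 and -0.46), with adjusted p up to 0.107 in limma. With the title number as a block over the 8 arrays of numbers 2, 3, 5 and 6, Ifng had -0.50 (limma, adjusted p = 0.122) and Ifngr2 -0.46 (limma, adjusted p = 0.0345), and 1246 genes were called in place of 2496. The count fell to 1525 without the 8 h array 3. The Ifngr2 call held in each fit that left out 1 array. Without the run term both calls were lost, at -0.58 for Ifng and -0.45 for Ifngr2 (limma, adjusted p = 0.0925 and 0.172). With mean macrophage markers added as a covariate Ifng had -0.43 and no longer passed.

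The change between 8 h and 2 h differed between the runs for all 3 members. Ifng was 1.97-fold lower at 8 h than at 2 h on arrays 2 to 4 (log2 -0.98; limma within the run, adjusted p = 4.16e-05) and differed by -0.03 on arrays 5 and 6 (limma, adjusted p = 0.955). The difference between those changes was -0.95 ± 0.12 (limma, 9 IL-12 arrays, adjusted p = 0.00179). For Ifngr1 the change was 0.05 on arrays 2 to 4 (limma, adjusted p = 0.659) and -0.54 on arrays 5 and 6 (limma, adjusted p = 0.0258), a difference of 0.60 ± 0.11 (limma, adjusted p = 0.0168). For Ifngr2 it was -0.73 on arrays 2 to 4 (limma, adjusted p = 9.59e-05) and -0.21 on arrays 5 and 6 (limma, adjusted p = 0.372), a difference of -0.52 ± 0.11 (limma, adjusted p = 0.0338). Such a difference was called for 387 genes, 1.96% of those tested. The ligand gene and the signalling chain thus had the larger fall on arrays 2 to 4, and the binding chain had it on arrays 5 and 6.

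The difference for Ifng was called in all 9 fits that left out 1 array, with values between -1.03 and -0.87. Ifngr1 lay between 0.53 and 0.66, and its call was lost in 5 fits, without the 2 h arrays 3 (0.57), 4 (0.60) and 6 (0.57) and the 8 h arrays 2 (0.56) and 6 (0.53). Ifngr2 lay between -0.60 and -0.43, and its call was kept only without the 8 h array 5. The count of genes fell to 136 without the 8 h array 2, and to between 176 and 248 without the 8 h arrays 3 or 6 or the 2 h arrays 3, 4 or 6. The run split came from both times for Ifng. At 2 h arrays 2 to 4 were 1.69-fold above arrays 5 and 6, and at 8 h they were a log2 of -0.19 apart in the other direction. For Ifngr1 the split lay at 8 h, where arrays 2 and 3 were 1.40-fold above arrays 5 and 6, against a log2 of -0.11 at 2 h. For Ifngr2, arrays 2 to 4 were lower at both times, by a log2 of -0.76 at 8 h and -0.24 at 2 h. Macrophage and monocyte markers averaged 6.22 to 6.24 at 8 h and 6.28 to 6.38 at 2 h on arrays 2 to 4, and 6.60 to 6.66 at 8 h and 6.61 to 6.72 at 2 h on arrays 5 and 6. Their part in the run difference was not tested.

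Interferon-gamma's own target genes, induced in cells that sense the cytokine, did not pass the test at 2 h. Of 45 listed, 34 were measured, and 23 of these were above 0 at 2 h, with a median log2 change of 0.17 against -0.0032 over all genes. Within numbers 5 to 8 it was 21 of 34, with a median of 0.10. At 8 h against untreated cells 1 rose and 2 fell, or 8.82% of those measured against 3.16% of all genes, a small count from which nothing is read about the list. Ido1, which degrades tryptophan, rose by a log2 of 0.46 ± 0.10 (limma, adjusted p = 0.0193). Its signal was dim, with a mean log2 intensity of 6.41 on the 8 h arrays 5 and 6 and 5.92 on the untreated arrays. Both means lie below the median intensity of every array. Cd274, which encodes the checkpoint ligand PD-L1, fell by 0.97 (limma, adjusted p = 2.17e-05) and Irf8, a transcription factor, fell by 0.45 (limma, adjusted p = 0.0147). The Irf8 call was lost without untreated array 7 (-0.37), and that of Ido1 without either untreated array or the 8 h arrays 5 and 6 (0.44 to 0.48). With numbers 5 to 8 alone neither passed, at -0.37 for Irf8 and 0.49 for Ido1 (limma, adjusted p = 0.121 and 0.0816). Between 8 h and 2 h, 2 rose and 15 fell, against 6.27% higher and 6.36% lower over all genes, with a median of -0.15 against -0.0090 over all genes. The median within a run was -0.16 in numbers 2 to 4 and -0.052 in numbers 5 to 8. Those lower at 8 h included Cxcl10, a chemokine that attracts T helper 1 cells (-1.56 ± 0.16), and Irf1, a factor that interferon-gamma induces and that acts on Ifng as well (-0.35 ± 0.06; limma, adjusted p = 0.00276). The Irf1 call was lost with the mean of its probe sets and with numbers 5 to 8 alone, where it had -0.18.

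Cxcl10 had an intensity of 259.8 and 256.5 at 8 h on arrays 2 and 3 and 377.0 and 290.1 on arrays 5 and 6. At 2 h it had 1073, 1032 and 1095 on arrays 2 to 4 and 607.7 and 700.8 on arrays 5 and 6, against 470.6 and 502.1 in untreated cells and 190.1 at baseline. Like Ifng, it was highest at 2 h on arrays 2 to 4. Of the 34 targets 7 (20.6%, against 1.96% of all genes) differed between runs, all with the larger fall on arrays 2 to 4: Cxcl9, Cxcl10, Cxcl11, Iigp1, Socs1, Batf2 and Nos2. Cxcl9, Cxcl11 and Batf2 are named here after their values were seen. Such differences were not limited to targets, since 13 of 34 cytokine genes of T cells (38.2%) differed too, 10 of them with the negative sign, Il2, Il4 and Lif included. The change in Cxcl10 was -2.05 on arrays 2 to 4 and -0.98 on arrays 5 and 6 (limma, adjusted p of the difference 0.0038). That of Iigp1, an immunity-related GTPase, was -1.07 and -0.20 (limma, adjusted p of the difference 0.0072).

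**Figure D3:**
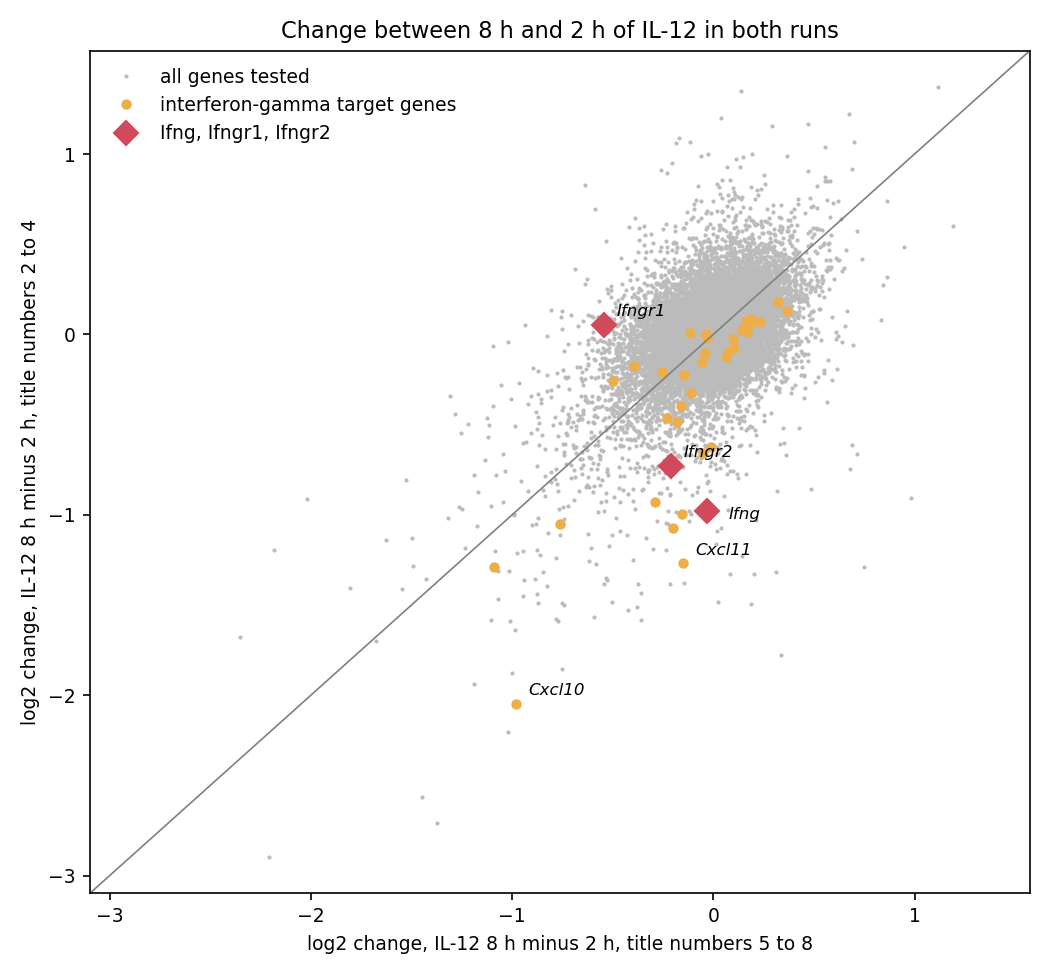
Log2 change between 8 h and 2 h of IL-12 for each of 19752 genes, with title numbers 5 to 8 on the horizontal axis and 2 to 4 on the vertical, and the line of equal change. Ifng sits near 0 across and near -0.98 down beside several target genes, of which Cxcl10 and Cxcl11 are labelled, and Ifngr1 lies on the other side of the line from Ifng and Ifngr2.

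Of 15 listed genes of the receptor's signal chain, 10 were measured besides both receptor genes, and 0 passed in either comparison of IL-12 with untreated cells by limma's adjusted p. Jak1, the kinase on IFNGR1, had -0.03 ± 0.08 at 2 h and 0.07 ± 0.08 at 8 h (limma, adjusted p = 0.999 and 0.797). Jak2, the kinase on IFNGR2, had 0.17 ± 0.12 at 2 h and -0.42 ± 0.12 at 8 h (limma, adjusted p = 0.999 and 0.0791), and it fell at 8 h against 2 h (log2 -0.59 ± 0.09; limma, adjusted p = 0.000493). Its intensity at 8 h was 1940 and 1936 on arrays 2 and 3 and 2903 and 2565 on arrays 5 and 6, and at 2 h it was 3278, 3368 and 3228 on arrays 2 to 4 and 3196 and 3943 on arrays 5 and 6. Between 8 h and 2 h Stat3 also fell (-0.24 ± 0.05) and Pik3cd, a lipid kinase subunit, rose (0.29 ± 0.05). Jak2, Stat3 and Pik3cd were 30% of the 10 genes, a small count, against 12.6% of all genes called. With numbers 5 to 8 alone none of them passed, at -0.38 for Jak2 and 0.34 for Pik3cd. The Stat3 call was also lost without the run term and with mean macrophage markers as a covariate.

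Among 16 genes listed as inhibitors of the receptor signal, 0 passed at 2 h by limma's adjusted p. At 8 h against untreated cells Usp18, best known as an inhibitor of the type I interferon receptor, rose by 0.39 ± 0.08. Dusp5 (-0.79 ± 0.08) and Dusp1 (-0.55 ± 0.10), listed here but known as phosphatases of MAP kinases, fell. Usp18, Dusp5 and Dusp1 were 18.8% of the 16, against 3.16% of all genes called. The Usp18 call was lost without untreated array 8 (0.30) or the 8 h array 5 (0.34), and that of Dusp1 without untreated array 7 (-0.49). Of the 16 listed genes 7 (43.8%) were lower at 8 h than at 2 h, against 6.36% of all genes. Socs1, which binds JAK kinases and is itself induced by interferon-gamma, was 1 of them (-0.38 ± 0.10; limma, adjusted p = 0.0227). Its call was lost without any one of the 2 h arrays 2, 3 and 4 or the 8 h arrays 2 and 3 (-0.37 to -0.30). Its change was -0.66 on arrays 2 to 4 and -0.05 on arrays 5 and 6, and the difference passed (limma, adjusted p = 0.0175).

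Of 36 listed genes that drive Ifng transcription in T cells, 34 were measured, and 4 rose and 0 fell at 2 h, a share of 11.8% against 0.0709% of all genes. This list, like the others, was chosen with earlier results of these data known, so nothing is read from its share. The median of the 34 was 0.078, and 0.045 within numbers 5 to 8. Il18r1 and Il18rap, both chains of the IL-18 receptor, rose by 0.99 ± 0.13 and 0.69 ± 0.08 (limma, adjusted p = 0.0102 and 0.00561). Myd88, its adaptor, rose by 0.60 ± 0.09, and Jun, a subunit of AP-1, by 0.92 ± 0.11 (limma, adjusted p = 0.0146 and 0.00362). Without untreated array 7 all 4 calls were lost, at 0.86 for Il18r1, 0.63 for Il18rap, 0.65 for Myd88 and 0.85 for Jun, and that of Myd88 was also lost without untreated array 8 or the 2 h array 5 (0.56 each). With numbers 5 to 8 alone none of the 4 passed, at 0.98 for Il18r1, 0.70 for Il18rap, 0.62 for Myd88 and 0.84 for Jun. With the macrophage marker covariate Il18r1 (1.02) and Myd88 (0.63) did not pass, while Il18rap and Jun did. The Myd88 call was lost without the run term too (0.89). Tbx21, which encodes T-bet, the T helper 1 regulator, had intensities of 5188, 4930 and 4780 on the 2 h arrays 2 to 4 and 3898 and 3238 on arrays 5 and 6, against 2636 and 2352 in untreated cells. The groups did not overlap, but at 2 h its change of 0.56 ± 0.10 did not pass (limma, adjusted p = 0.0705). Stat4 had -0.12 ± 0.08, and Il12rb1 and Il12rb2, which encode the chains of the IL-12 receptor, had -0.09 ± 0.10 and 0.39 ± 0.12, none of which passed.

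At 8 h against untreated cells 4 of the 34 drivers rose and 5 fell, or 26.5% called against 3.16% of all genes. Jun (0.64 ± 0.11), Il18r1 (0.76 ± 0.13), Myd88 (0.38 ± 0.09) and Tbx21 (0.40 ± 0.10; limma, adjusted p = 0.0406) were higher, the last with its call lost in each of the 6 fits that left out 1 array (0.32 to 0.49). Without untreated array 7, Jun (0.58), Il18r1 (0.64) and Myd88 (0.42) lost theirs too, and Myd88 also without untreated array 8 (0.34) or the 8 h array 5 (0.33). Rel, the NF-kappaB subunit c-Rel (-1.20 ± 0.11), and Fos (-0.71 ± 0.10) were among those lower. Between 8 h and 2 h 17 of the 34 fell and 0 rose, against 6.36% lower over all genes, with a median of -0.27. Within a run it was -0.31 in numbers 2 to 4 and -0.14 in numbers 5 to 8. Of 19 measured genes that restrain Ifng, 8 fell and 1 rose in the same comparison, with medians of -0.23 in numbers 2 to 4 and -0.13 in numbers 5 to 8. Of these 19, 0 passed at 2 h by limma's adjusted p, and at 8 h against untreated cells 0 rose and 6 fell, or 31.6% against 2.13% of all genes. The call of Rc3h1, an RNA decay factor, was lost in each of the 6 fits that left out 1 array, and those of Gata3, the T helper 2 regulator, and Zfp36, an RNA decay factor, were each kept in 1 of 6. The others included Zc3h12a, which encodes the RNase Regnase-1 (-0.56 ± 0.08; limma, adjusted p = 0.001), and Smad3, which carries the signal of TGF-beta (-0.59 ± 0.09; limma, adjusted p = 0.00215). With mean macrophage markers in the fit, Zc3h12a had -0.57 and Smad3 -0.65, and neither passed (limma, adjusted p = 0.0602 and 0.0589).

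The other cytokine genes of T cells gave 34 measured genes. Of these, 0 passed at 2 h by limma's adjusted p, with a median of 0.14, while within numbers 5 to 8 the median was 0.044, with 17 above and 17 below 0. At 8 h against untreated cells 10 fell and 0 rose, against 2.13% lower over all genes, with a median of -0.26, and -0.22 within numbers 5 to 8. Il2, the T cell growth factor, fell by 1.54 ± 0.27, and Il4, the T helper 2 cytokine, fell by 1.24 ± 0.19 (limma, adjusted p = 0.00636 and 0.00244), the call of Il2 being lost without untreated array 7 (-1.44). Both calls were also lost without the run term (-2.54 for Il2 and -0.87 for Il4) and with the macrophage marker covariate (-1.25 and -0.83). That covariate ended the 8 h calls against untreated cells of Ido1, Irf8, Usp18, Dusp1, Jun, Il18r1, Myd88 and Tbx21 as well, and Cd274, Dusp5, Rel and Fos passed with it. With numbers 5 to 8 alone the 8 h calls of Usp18 (0.42), Myd88 (0.37) and Tbx21 (0.45) were lost too, while Dusp1, Jun and Il18r1 passed. None of the 9 measured genes of other interferons passed in either comparison with untreated cells by limma's adjusted p.

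Ifngr2 lies in a cluster of class II cytokine receptor genes. Its neighbours of that family on mouse chromosome 16 are Ifnar2, Il10rb and Ifnar1. At 8 h against untreated cells Ifnar1, a chain of the type I interferon receptor, fell by 0.32 ± 0.07 (limma, adjusted p = 0.0275), a call lost without either untreated array or the 8 h arrays 5 and 6 (-0.36 to -0.27). With numbers 5 to 8 alone Ifnar1 had -0.35 and did not pass (limma, adjusted p = 0.138). Ifnar2, its partner chain, had 0.06 ± 0.07 and Il10rb, which serves IL-10 and IL-22, had -0.24 ± 0.08, and neither passed. On its other side Tmem50b, a membrane protein gene, fell by 0.82 ± 0.12 (limma, adjusted p = 0.0011), more than Ifngr2 by point estimate, and with the macrophage marker covariate it had -0.69 and did not pass, nor did Ifnar1. Of 10 measured neighbours 2 fell at 8 h, against 2.13% lower over all genes, and 0 passed at 2 h by limma's adjusted p. From so small a count nothing is read about the cluster. Il10ra, the IL-10-binding chain, did not pass against untreated cells, but its change between 8 h and 2 h differed between runs by -0.84 (limma, adjusted p = 0.00165).

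The 10 neighbours of Ifng on chromosome 10 had log2 changes of -0.12 to 0.43 at 2 h, and 0 passed by limma's adjusted p, against 1.94 for Ifng. At 8 h 1 of them, Irak3, an inhibitor of Toll-like receptor signalling, fell by 0.32 ± 0.08 (limma, adjusted p = 0.0492), a call kept only without the 8 h array 2 and otherwise between -0.37 and -0.28. Iltifb, a near copy of the IL-22 gene next to Ifng, had an intensity between 23.0 and 52.2 on all arrays, and its value is uncertain because the copies share sequence. No probe set named Il22 alone, and Il22 has no value here. For Ifngr1, also on chromosome 10, Tnfaip3, an inhibitor of NF-kappaB signalling, fell by 0.92 ± 0.10 at 8 h, and 0 of the other 9 measured neighbours passed by limma's adjusted p. Over all genes 2.13% were lower at 8 h against untreated cells.

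**Figure D4:**
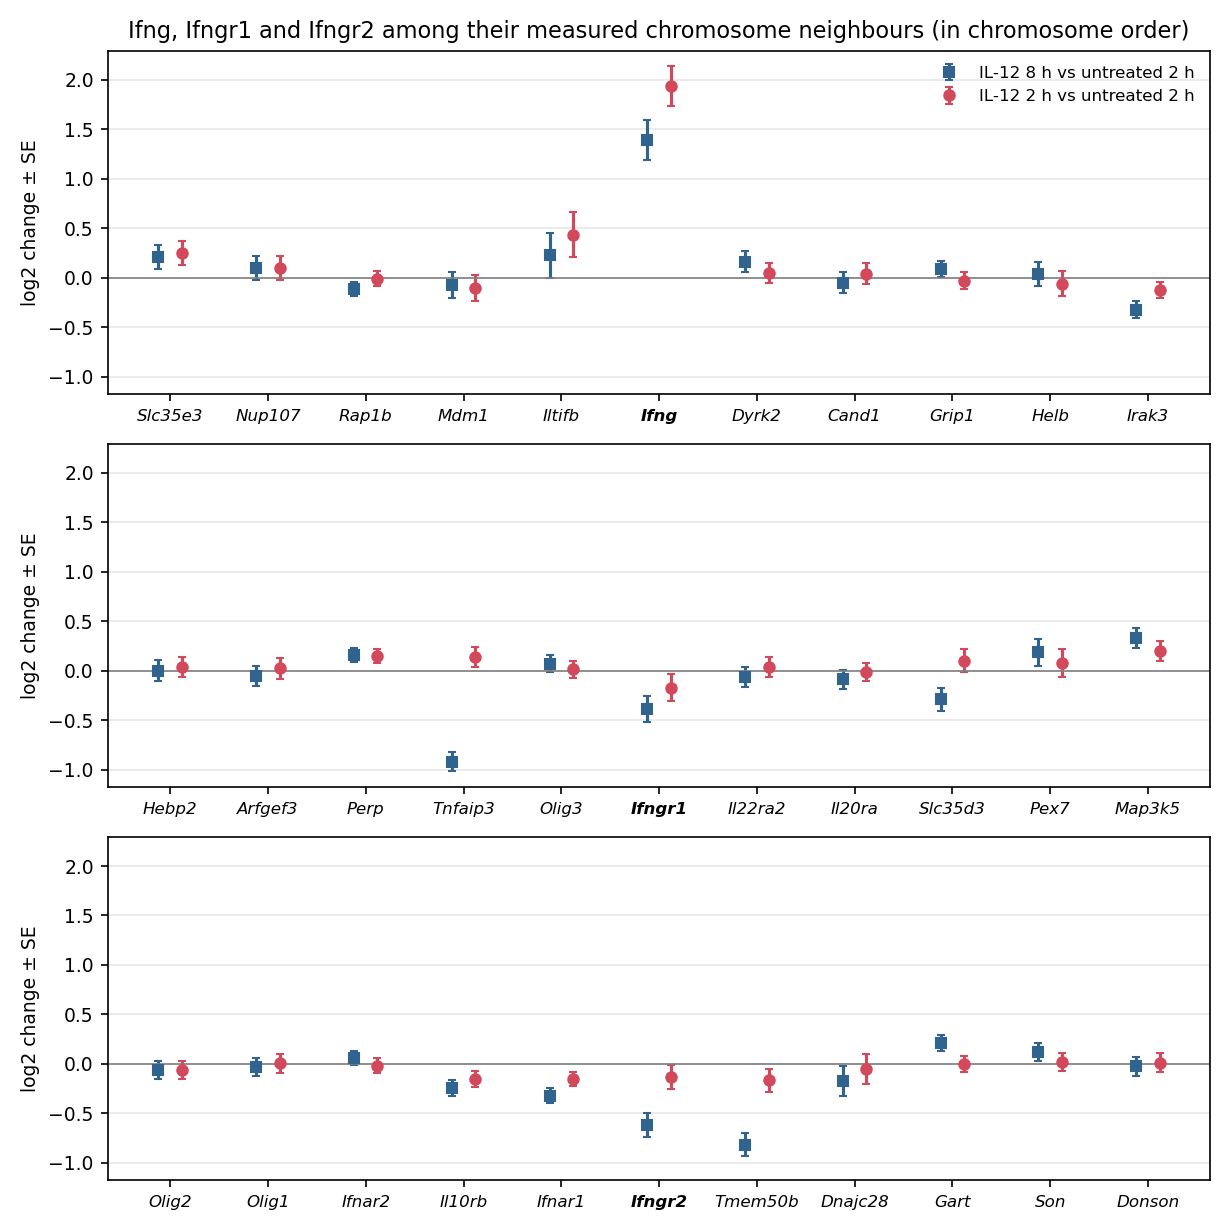
Log2 change ± SE against untreated cells at 8 h (squares) and 2 h (circles) for each member and the nearest measured protein-coding genes, 5 on each side, in chromosome order. Ifng stands at 1.94 and 1.39 among neighbours between -0.32 and 0.43, while at 8 h Tmem50b and Tnfaip3 lie below the receptor genes beside them.

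The members had different companions across the 12 arrays. In log2 values adjusted for the run, among the 25% of genes with the highest SD, 4613 of them with a given name, the genes most like Ifng by Pearson's r were Sbno2 (0.962), Zfp318 (0.946), Neb (0.941), Jun (0.939) and Sema6d (0.932). Those most like Ifngr1 were Arrb1 (0.959), Stk39 (0.950), Tm6sf1 (0.938), Smpdl3a (0.932) and Bnip3 (0.930). Those most like Ifngr2 were Prkch (0.979), Chst15 (0.979), Rcan3 (0.972), Ccrl2 (0.972) and Mapkapk3 (0.965). All these values share the 12 arrays and their 4 groups. Without the adjustment 2, 0 and 2 of the 5 names stayed among the top 5 of Ifng, Ifngr1 and Ifngr2, and with Spearman's rho 0, 2 and 0 did. The members themselves were unlike each other, with r of -0.67 for Ifng and Ifngr1, 0.11 for Ifng and Ifngr2 and 0.05 for Ifngr1 and Ifngr2. Without the adjustment these were -0.49, -0.30 and 0.02. Sbno2, a transcriptional coregulator, was also called at 2 h, with intensities of 1336, 1487 and 1294 on arrays 2 to 4 and 1206 and 1042 on arrays 5 and 6, against 779.8 and 664.7 in untreated cells (log2 0.69 ± 0.10; limma, adjusted p = 0.0202). That call was lost without untreated array 7 (0.81), untreated array 8 (0.58) or the 2 h array 5 (0.66). It was also lost with numbers 5 to 8 alone (0.64) and with the macrophage marker covariate (0.72).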

How the data were processed

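Affymetrix Mouse Gene 1.0 ST arrays measured the total RNA of 12 samples. The authors deposited linear intensity for 24922 probe sets, made with RMA and Affymetrix Power Tools per the submitters' processing notes. RMA equalises the arrays, so a difference in total RNA per cell is not kept. Which annotation and genome build were used is not given in the sources used here. Per array, the median intensity was 160.6 to 167.3.

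The deposited intensity was log2-transformed and not normalized again. Probe sets with exactly 1 platform symbol (21425) were kept, and the one with the highest mean stood for a gene, giving 19752 genes. Groups came from sample titles. A linear model with 4 group means and the run of title numbers was fitted with limma 3.58.1 in R 4.3.3, two-sided, and genes were called where the p adjusted over all genes by Benjamini-Hochberg was under 0.05. The difference between runs was fitted on the 9 IL-12 arrays. The number of arrays limits the precision, with a median SE of 0.095 for comparisons with untreated cells and 0.069 between IL-12 times. With 1 baseline array, the spread in that comparison comes from the other groups. Tested on simulated data, limma called 86% and 100% of genes changed by a log2 of 0.5 and 1 for IL-12 2 h against untreated cells, and 37% and 98% for untreated cells against baseline. The simulation used normal noise and the same run offset in every group. It also changed more genes than the 14 called at 2 h in the data, which eases the adjusted threshold. These shares therefore do not say how many real changes of such a size would pass at 2 h.

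The members, gene lists and tests were chosen with earlier results of these data known. The text names the members, a panel (Jak1, Jak2, Stat4, Tbx21, Il12rb1, Il12rb2, Irf1, Socs1, Il22, Ifnar1, Ifnar2, Il10ra and Il10rb, with 1 further gene not reported here), up to 4 genes of each list with the smallest p per comparison, the 5 genes most like each member and up to 5 chromosome neighbours on each side. Same-numbered IL-12 arrays deviated together from their group means (r of 0.30 to 0.52 over 4 pairs), and the number was used as a block in an alternative. Differently numbered IL-12 arrays of 1 run did so too (r of 0.41 to 0.50), so these values do not show pairing by number. Same-numbered arrays did not deviate together from the means of group and run (r of -0.26 to 0.03). Where a group has 2 arrays in a run, their deviations mirror each other, so that check holds few independent pairs. Other alternatives changed the run term, arrays, normalization, offset, dim filter, variance model and probe sets of a gene. Plots were drawn with matplotlib 3.10.9 in Python 3.11.15.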

Additional observations from a re-analysis of the deposited data

Results flagged for a closer look

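The change between 8 h and 2 h of IL-12 differed between the runs of title numbers for all 3 members by limma's test of the difference itself, given here as numbers 2 to 4 minus 5 to 8 on the log2 scale. For Ifng it was -0.9472 (limma, adjusted p = 0.00179), with 3 and 2 arrays at 2 h and 2 and 2 at 8 h. For Ifngr1 it was 0.5954 (limma, adjusted p = 0.0168), the opposite sign to the other members, and for Ifngr2 it was -0.5152 (limma, adjusted p = 0.0338). Over all genes 1.96% were called in this test. Left out 1 array at a time, the Ifng call held in each fit. The Ifngr1 call was lost in several of these fits, and that of Ifngr2 was kept only without the 8 h array 5. What the numbers stand for is not in the labels, and the cause was not tested.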

How the results depend on the processing

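Over the alternatives tried, the rise of Ifng against untreated cells kept its call at both times. Leaving out 1 array gave 1.79 to 2.10 for Ifng at 2 h and 1.20 to 1.53 at 8 h, -0.27 to -0.11 and -0.44 to -0.26 for Ifngr1, and -0.15 to -0.05 and -0.75 to -0.58 for Ifngr2. Between 8 h and 2 h it gave -0.67 to -0.41 for Ifng, -0.30 to -0.14 for Ifngr1 and -0.57 to -0.42 for Ifngr2, and for untreated against baseline 0.05 to 0.34, -0.45 to -0.34 and 0.57 to 0.60. The counts of genes called lay between 2 and 13, 267 and 568, 1525 and 2339, and 1464 and 1498 for these 4 comparisons, and for the difference between runs between 136 and 561, with members at -1.03 to -0.87, 0.53 to 0.66 and -0.60 to -0.43.

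Without the run term 9 genes were called at 2 h in place of 14, 243 at 8 h in place of 625, 871 between 8 h and 2 h in place of 2496 and 115 for untreated against baseline in place of 2022. Ifngr2 then had -0.86 at 8 h against untreated cells, and between 8 h and 2 h Ifng had -0.58 and Ifngr2 -0.45, and all 3 calls were lost (limma, adjusted p = 0.069, 0.0925 and 0.172). With numbers 5 to 8 alone the counts were 1, 320 and 363. Ifngr1 had -0.55 against untreated cells at 8 h, and between 8 h and 2 h Ifng had -0.0299, Ifngr1 -0.54 and Ifngr2 -0.21, while with numbers 2 to 4 alone Ifngr1 turned to 0.0536. With mean macrophage markers added as a covariate, the counts were 4, 96, 1167 and 98, Ifngr2 had -0.57 at 8 h against untreated cells, Ifng had -0.43 between 8 h and 2 h, and against baseline Ifng turned to -0.32 and Ifngr2 had 0.48. Placing the baseline array with numbers 2 to 4 gave 204 genes, 0.11 for Ifngr2 and 0.0562 for Prdm1, which turned its sign, and without the run term Ifngr2 had 0.58 (limma, adjusted p = 0.44). With the title number as a replicate block Ifng had -0.50 between 8 h and 2 h, and 1246 genes were called, and no other member's call changed. The causes were not tested. The alternatives for the difference between runs were chosen after seeing the data.

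With 2 untreated arrays and 1 baseline array, comparisons with them have limited precision, and no untreated array carries a number from 2 to 4.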
